A study of Saccharomyces cerevisiae W303 with 8 samples.

Results

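The genes described are the 32 listed genes for subunits of the proteasome of budding yeast and RPN4, the gene for the transcription factor that drives them. These 33 genes were chosen by name and matched to their probes by systematic name, out of 6228 genes with a probe on the array. They fall into 14 genes of the core particle (7 of the alpha ring and 7 of the beta ring), 18 genes of the regulatory particle (10 of the base and 8 of the lid), and RPN4. All 33 had 1 probe tested here, and each of these probes was well above background in both dye channels on all 8 arrays.

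The proteasome degrades proteins that carry a chain of ubiquitin. The regulatory particle captures and unfolds them and the barrel-shaped core particle cuts them into peptides. Rpn4 binds a shared promoter element, known as PACE, upstream of most proteasome genes and activates them together. Rpn4 is itself a very short-lived substrate of the proteasome, so the pair forms a feedback loop, and its gene is in turn a target of the stress factors Yap1, Pdr1, Pdr3 and Hsf1.

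RNA was measured in 2 strains of the W303 background, grown in YPD medium at 30 °C and sampled before and 10, 20 and 30 min after NaCl was added to 0.4 M, a hyperosmotic stress. Both strains are labelled as lacking MSN2 and MSN4, the genes for a pair of general stress transcription factors, and both carried a plasmid labelled pMsn2pMsn2DNES. The cdc55 strain is labelled as also lacking CDC55, the gene for a regulatory B subunit of protein phosphatase 2A, and the other strain is called the control strain here. Cells of these strains are called cdc55 cells and control cells. The series title names the action of this phosphatase on the response to hyperosmolarity through Msn2 and Msn4 as the subject. Neither strain holds a chromosomal copy of MSN2 or MSN4, per the labels, so the control strain is not a wild type. Each strain and time was measured on 1 array, 8 in all. RNA of the sample carried Cy5, and RNA of the untreated control strain carried Cy3 on every array. A level below is a log2 ratio of Cy5 over Cy3, on which 0 is the untreated control strain and 1 is 2-fold more RNA. A difference or response is a difference of such levels. In bulk cultures, fewer cells with a transcript and less of it per cell cannot be told apart. Where a test is given, it is limma fitted over 6108 probes, the error is the standard error (SE) of that fit, and a change is called where the Benjamini-Hochberg adjusted p is under 0.05. With no repeated cultures, the spread behind these p-values is that of the strain difference between the 3 NaCl times, and the 0 min arrays are assumed to vary alike.

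Spots clear of background in Cy5 made up 93.1% to 98.6% of each array, and the control strain at 0 min gave log2 ratios with an SD of 0.15. The scanner files attached to control 10 min and cdc55 0 min, and those attached to control 30 min and cdc55 20 min, held each other's values in the deposited value table and were swapped back. After this, the CDC55 probe lay between 0.14 and 0.45 on the control arrays and between -0.54 and -0.21 on the cdc55 arrays, with no overlap, and stayed well above background on all 8. Of the other genes labelled as deleted, MSN4 had a probe well above background on 8 arrays in Cy5 and on 8 in Cy3, and MSN2 on 6 in Cy5 and on 2 in Cy3. The sources used here do not say whether these probes lie in deleted sequence. The MSN4 probe was at 0.01 before NaCl and between 1.04 and 1.16 on the NaCl arrays in control cells. In cdc55 cells it was at -0.13 before NaCl and at 0.75 or above on the NaCl arrays. The MSN2 probe stayed between -0.14 and 0.23 on all 8 arrays. What the rise of the MSN4 signal means for the labelled genotype was not tested. The 2 spots of a member's probe gave their mean an error of 0.101 on the log2 scale (SD, 262 pairs of spots).

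RPN4 had its highest level at 10 min in both strains, ahead of the subunits. In control cells its level was -0.07 before NaCl, then 1.65, 0.35 and 0.34 after 10, 20 and 30 min. At the same times in cdc55 cells it was 0.61, 1.76, 0.31 and 1.15. The 10 min arrays stood alone at the top in control cells, while in cdc55 cells the 30 min array came next and the unstressed array was already above the reference. Of all probes tested, 13.8% had their highest level at 10 min in both strains.

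The early peak of RPN4 did not pass the test across the array. From 10 to 20 min, averaged over both strains, RPN4 differed by -1.37 ± 0.24 (limma adjusted p = 0.0943), and from 10 to 30 min by -0.96 ± 0.24 (limma adjusted p = 0.0618). The first of these differences passed with median centring in place of loess (limma adjusted p = 0.022), and the second with Agilent's own log ratio (limma adjusted p = 0.0467). The difference from 20 to 30 min was 0.42 ± 0.24 (limma adjusted p = 0.382). It came from the cdc55 strain, where the level went from 0.31 to 1.15, and not from the control strain, where it went from 0.35 to 0.34. Averaged over 10, 20 and 30 min, the NaCl response of RPN4 was 0.85 ± 0.27 in control cells (limma adjusted p = 0.0848) and 0.46 ± 0.27 in cdc55 cells (limma adjusted p = 0.334).

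The subunits had their highest levels later than RPN4, and alike in most genes. The median level of the 32 subunits was -0.03 before NaCl, then 0.20, 0.76 and 0.89 after 10, 20 and 30 min in control cells. The cdc55 strain gave medians of 0.30, 0.70, 1.01 and 0.83. The control strain had its largest step between 10 and 20 min, with a median of 0.65 over the subunits, and the cdc55 strain a step of 0.41 there. In control cells 24 of 32 subunits were highest at 30 min and 8 at 20 min. The cdc55 strain had 25 highest at 20 min and 7 at 30 min. No subunit was highest at 0 or 10 min in either strain. Of all probes tested, 21.9% were highest at 30 min and 21.2% at 20 min in control cells, and 17.8% and 27.5% in cdc55 cells.

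**Figure D1:**
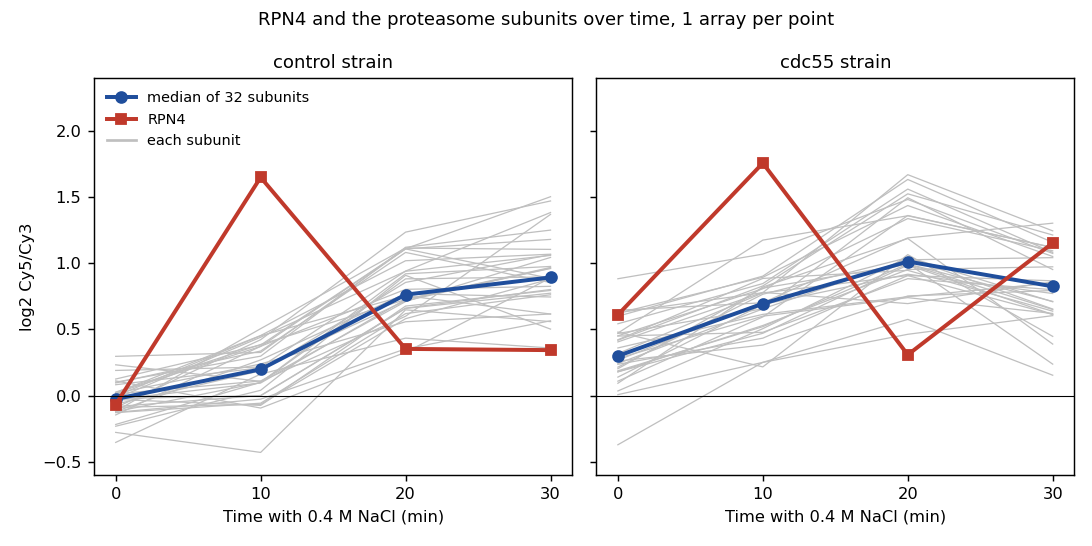
Levels (log2 Cy5/Cy3, vertical axis) against time with 0.4 M NaCl in minutes (horizontal axis), control strain at left and cdc55 strain at right, 1 array per point. Red squares are RPN4, highest at 10 min with 1.65 and 1.76, grey lines are the 32 subunits, and blue circles are their median, which reached 0.89 at 30 min in control cells and 1.01 at 20 min in cdc55 cells.

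Across the 8 arrays the level of RPN4 had a Pearson r of 0.008 with the median of the subunits at the same times, whereas the subunits had r between 0.48 (PRE2) and 0.99 (PRE4) with the median of the other subunits. These are descriptions over 8 arrays that share a reference and a time course. The plot of levels over time shows this offset most clearly in control cells. There RPN4 stands at its peak while the subunit median is at 0.20, and is back at 0.35 when that median is at 0.76. In cdc55 cells the median was already at 0.70 at the peak of RPN4. At 30 min RPN4 was at 1.15 there, with the median at 0.83.

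The response of the subunits to NaCl was positive for every gene in both strains. In control cells the mean of 10, 20 and 30 min minus 0 min had a median of 0.67 over the 32 subunits, from 0.26 (RPN1) to 1.14 (RPN6), and all 32 were above 0, against 50.2% of all probes. The test called 4 of 32 subunits higher and none lower, where 7.66% of all probes were called higher. In cdc55 cells the median was 0.54, from 0.10 (PRE6) to 0.92 (RPN9), again with all 32 above 0, against 51.2% of all probes. Here 1 of 32 was called higher, where 2.88% of all probes were. At an unadjusted p under 0.05 the counts were 21 and 14 of 32, where 34.5% and 26.3% of all probes passed in either direction. The 4 calls of the control strain became 29 when the 10 min arrays were left out and 0 when the 20 min arrays were. The 1 call of the cdc55 strain became 11 and 0. Calls over all probes moved the same way, as given at the end. Each of these fits had 1 residual degree of freedom in place of 2. Scanner files without a settings block are those of the 2 unstressed arrays and of control 10 min. This file type and the NaCl response cannot be told apart in cdc55 cells, nor fully in control cells. File type also changes with the step from 10 to 20 min in control cells and with the strain difference at 10 min. These cannot be told apart from it either. Comparisons of 10 min with later times over both strains share this limit in part.

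**Figure D2:**
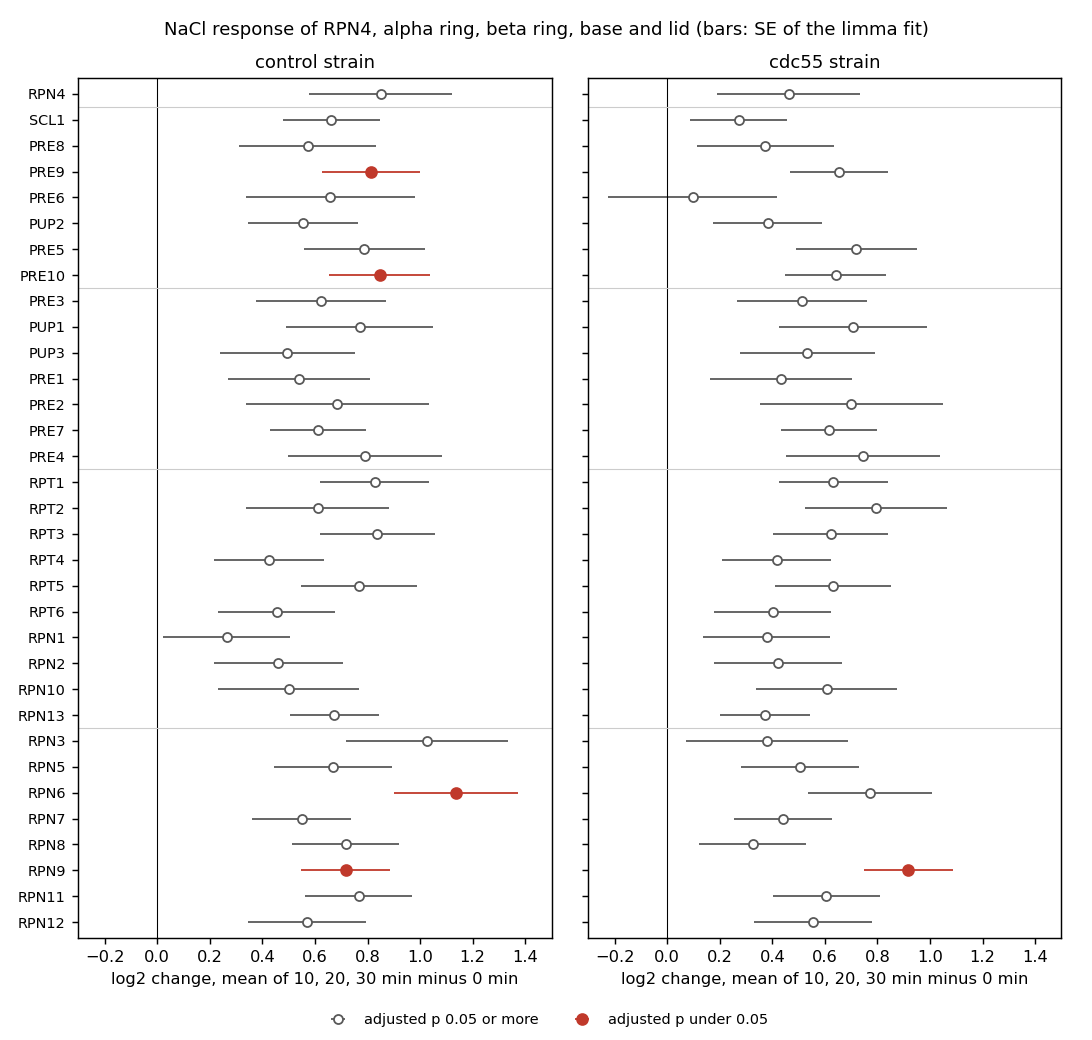
NaCl response of each of the 33 genes (log2, mean of 10, 20 and 30 min minus 0 min, horizontal axis), control strain at left and cdc55 strain at right, with bars for the SE of the limma fit. All points lie above 0, and filled points passed the test: PRE9, PRE10, RPN6 and RPN9 in control cells and RPN9 in cdc55 cells.

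In the alpha ring, which forms the gated ends of the core barrel, PRE9 and PRE10 rose in control cells. PRE9, the only alpha subunit that yeast can live without, was at -0.15, 0.37, 0.80 and 0.83 at 0, 10, 20 and 30 min in control cells and at 0.14, 0.69, 0.92 and 0.77 in cdc55 cells. Its response of 0.81 ± 0.19 in control cells passed the test (limma adjusted p = 0.0436). With Agilent's log ratio or median centring it did not pass. The cdc55 strain gave 0.65 ± 0.19 (limma adjusted p = 0.105). All 3 NaCl arrays of each strain lay above that strain's unstressed array.

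PRE10 was at -0.22, 0.10, 0.88 and 0.90 in control cells and at 0.18, 0.53, 0.95 and 0.97 in cdc55 cells. It rose by 0.85 ± 0.19 in control cells (limma adjusted p = 0.0423), and the response in cdc55 cells was 0.64 ± 0.19 (limma adjusted p = 0.115). The control response also passed with Agilent's log ratio (limma adjusted p = 0.0478), but not with median centring. The 20 and 30 min arrays were nearly level in both strains. PRE5 had the largest mean response of the alpha ring over both strains, 0.75, without passing the test in either. Its level was -0.12, 0.10, 0.92 and 0.98 in control cells and 0.03, 0.51, 1.05 and 0.71 in cdc55 cells.

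PRE6 had the smallest mean response of the alpha ring, 0.38. It was at 0.19, 0.22, 0.94 and 1.39 in control cells and at 0.48, 0.22, 1.07 and 0.45 in cdc55 cells. The 20 min array was thus high in both strains, while at 30 min control cells was at its highest and the cdc55 strain was back at its unstressed level. The response was 0.66 ± 0.32 in control cells (limma adjusted p = 0.205) and 0.10 ± 0.32 in cdc55 cells (limma adjusted p = 0.881).

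The beta ring carries the cutting sites of the proteasome, on Pre3, Pup1 and Pre2, and none of its 7 genes passed the test in either strain. PRE4, which encodes a subunit without a site of its own, had the largest mean response, 0.77. Its level was 0.10, 0.30, 1.12 and 1.25 in control cells and 0.47, 1.18, 1.36 and 1.12 in cdc55 cells. The cdc55 strain was thus near its plateau by 10 min and the control strain only by 20 min. PRE1, also without a cutting site, had the smallest, 0.49, with levels of -0.28, -0.43, 0.65 and 0.56 in control cells and 0.01, 0.25, 0.46 and 0.60 in cdc55 cells. In control cells it was the subunit with the lowest level at 10 min, below its own unstressed array.

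The base unfolds substrates with a ring of 6 ATPases (RPT1 to RPT6), and its non-ATPase subunits Rpn1, Rpn10 and Rpn13 bind ubiquitin. None of its 10 genes passed the test. RPT1 had the largest mean response, 0.73, with levels of 0.02, 0.45, 1.02 and 1.07 in control cells and 0.60, 0.90, 1.64 and 1.16 in cdc55 cells. All 6 ATPase genes were highest at 30 min in control cells and at 20 min in cdc55 cells. RPN1 had the smallest mean response of all subunits named here, 0.32. It was at 0.11, -0.09, 0.33 and 0.89 in control cells and at 0.36, 0.61, 0.75 and 0.85 in cdc55 cells, highest at 30 min in both.

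The lid removes the ubiquitin chain through the deubiquitinase Rpn11. RPN6, whose product braces the contact between base and core, had the largest response of all 32 subunits in control cells. It was at -0.09, 0.42, 1.24 and 1.47 in control cells and at 0.42, 0.83, 1.53 and 1.21 in cdc55 cells. It rose by 1.14 ± 0.24 in control cells (limma adjusted p = 0.0347), and the response in cdc55 cells was 0.77 ± 0.24 (limma adjusted p = 0.118). The control response also passed with Agilent's log ratio (limma adjusted p = 0.0326), but not with median centring.

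RPN9, a scaffold subunit of the lid, was the only member that passed in both strains. Its level was -0.23, 0.04, 0.91 and 0.50 in control cells and 0.11, 0.60, 1.36 and 1.12 in cdc55 cells. It rose by 0.72 ± 0.17 in control cells (limma adjusted p = 0.0466) and by 0.92 ± 0.17 in cdc55 cells (limma adjusted p = 0.0455). Both values are near the threshold, and with Agilent's log ratio or median centring RPN9 passed in neither strain. Unlike most subunits it was highest at 20 min in both strains. RPN7 had the smallest mean response of the lid, 0.49, with levels of 0.08, 0.21, 0.72 and 0.96 in control cells and 0.47, 0.66, 1.03 and 1.04 in cdc55 cells.

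**Figure D3:**
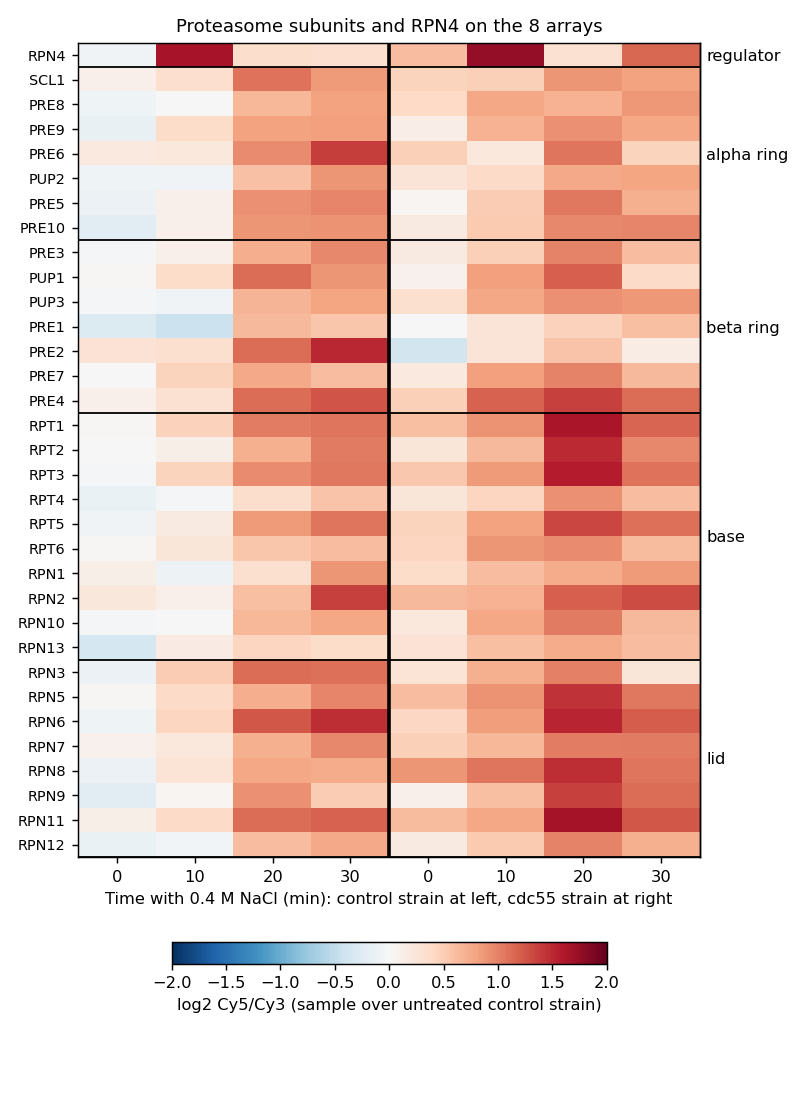
Level of each of the 33 genes (rows) on the 8 arrays (columns: time with 0.4 M NaCl in minutes, control strain at left, cdc55 strain at right), coloured by log2 Cy5/Cy3. RPN4 in the top row is darkest at 10 min in both strains, and the subunits below are palest on the unstressed control array and darken at 20 and 30 min.

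The order of the times with NaCl was compared over both strains. The 20 min arrays exceeded the 10 min arrays for all 32 subunits, with a median difference of 0.53 against -0.02 over all probes. limma called none of the 33 members there at an adjusted p under 0.05, where 0.0164% of all probes were called, and 18 of 33 were under an unadjusted p of 0.05, where 20.7% of all probes were. Between 10 and 30 min all 32 subunits had a positive difference, with a median of 0.49. limma again called 0 of 33 members, where 7.76% of all probes were called, with 16 of 33 and 29.4% of all probes under an unadjusted p of 0.05. The base scaffold gene RPN2 came closest, with 0.93 ± 0.21 (limma adjusted p = 0.0538). Between 20 and 30 min the median of the 32 subunits was -0.07, with 8 of 32 above 0. limma called 0 of 33 members and 0% of all probes. Under an unadjusted p of 0.05 were 0 of 33 members and 20% of all probes. This last median had the other sign with median centring (0.08) and with the files as attached (0.14). It also joins a median step of 0.12 in control cells to one of -0.30 in cdc55 cells.

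The cdc55 strain had more RNA of most subunits than the control strain before NaCl and for the first 20 min. With loess this no longer held at 30 min. The median of the 32 differences, cdc55 minus control, was 0.36 before NaCl, then 0.45, 0.30 and -0.01 after 10, 20 and 30 min. The cdc55 strain was higher for 31, 31, 28 and 16 of 32 subunits at these times, where it was higher for 50.6%, 49.0%, 53.9% and 45.8% of all probes. At all 4 times together it was higher for 15 of 32 subunits (46.9%), against 19.8% of all probes. At 30 min the count was 26 of 32 and the median 0.15 with median centring in place of loess, where 2718 of 6108 probes were higher. The end of the difference at 30 min thus depended on the normalisation.

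None of these strain differences passed the test. At 0 min, where 1 array stands on each side, limma called 0 of 33 members, and 0.0491% of all probes. Of the members 2 of 33 were under an unadjusted p of 0.05, RPN8 and RPN13, a share like the 6.73% of all probes. Averaged over 10, 20 and 30 min the median difference was 0.32 over the subunits, 28 of 32 were above 0, and limma called 0 of 33 members, where 2.21% of all probes were called. There 6 of 33 were under an unadjusted p of 0.05, a lower share than the 24.6% of all probes. With the files as attached that median was 0.066.

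RPN8 and RPN9, both genes of the lid, came closest to a strain difference. RPN8, whose product pairs with Rpn11, was at -0.12, 0.27, 0.77 and 0.75 in control cells and at 0.88, 1.07, 1.48 and 1.08 in cdc55 cells. The cdc55 strain was higher at all 4 times, by 1.01, 0.80, 0.71 and 0.33. Over the NaCl arrays the difference was 0.61 ± 0.14 (limma adjusted p = 0.0866). For RPN9 it was 0.54 ± 0.12 (limma adjusted p = 0.0766), with 0.34, 0.56, 0.45 and 0.62 at the 4 times. Both passed with median centring in place of loess (limma adjusted p = 0.0424 for RPN8 and 0.0478 for RPN9). Neither passed with Agilent's log ratio. There the differences at 10, 20 and 30 min were 0.61, 0.43 and 0.21 for RPN8 and 0.54, 0.17 and 0.28 for RPN9. With the files as attached both genes were lower in cdc55 cells at 20 and 30 min.

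The difference was larger in the regulatory than in the core particle at each time. In the regulatory particle the median difference between strains was 0.41, 0.53, 0.47 and 0.03 at 0, 10, 20 and 30 min, and in the core particle 0.29, 0.42, 0.12 and -0.07. At 20 min the 10 genes of the base ranged from 0.31 to 0.79, and the 7 genes of the alpha ring from -0.20 to 0.17. The lid, also part of the regulatory particle, ranged from -0.12 to 0.71 and overlapped the alpha ring. At 0, 10 and 30 min the base overlapped the alpha ring as well. The contrast between the particles is a description without a test. It held at each time with Agilent's log ratio and with median centring, but at 10 and 30 min not with the files as attached.

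**Figure D4:**
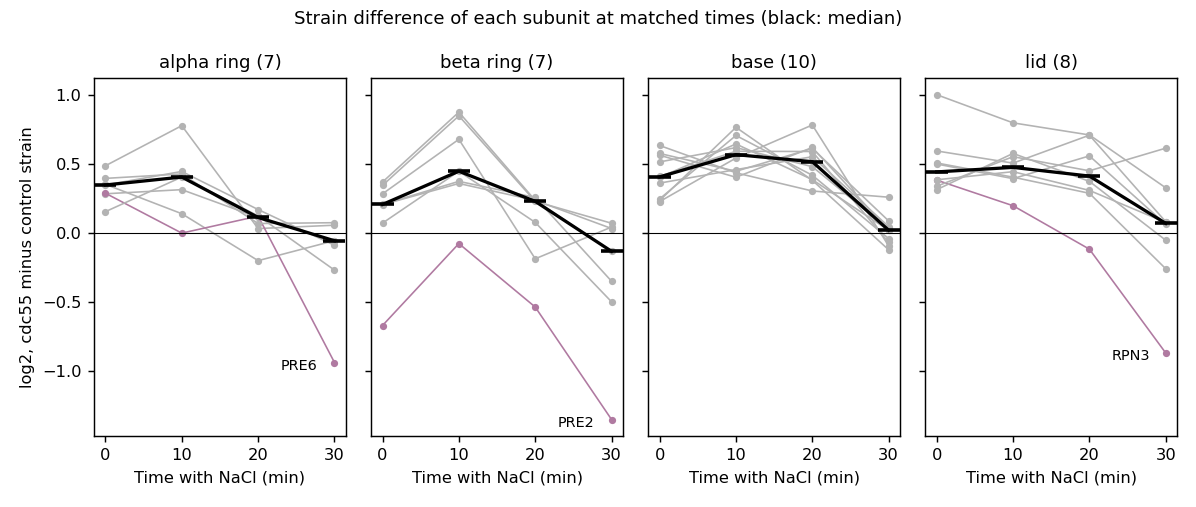
Strain difference (log2, cdc55 minus control strain at the same time, vertical axis) against time with NaCl in minutes, for each subunit of the alpha ring, beta ring, base and lid, with the median in black. Medians lie above 0 at 0, 10 and 20 min and near 0 at 30 min, and PRE2, PRE6 and RPN3, drawn in purple, end between -1.35 and -0.87.

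A few subunits departed from their neighbours. PRE2, which carries the chymotrypsin-like site, was the only subunit that was lower in cdc55 cells at all 4 times. Its level was 0.30, 0.33, 1.11 and 1.50 in control cells and -0.37, 0.25, 0.58 and 0.15 in cdc55 cells. The difference over the NaCl arrays was -0.65 ± 0.25 (limma adjusted p = 0.178). Leaving out the 10 min arrays brought it past the threshold (limma adjusted p = 0.00966). That setting also called far more of all probes between strains, as given at the end, and had 1 residual degree of freedom in place of 2. The sign at each time was the same with Agilent's log ratio and with median centring, but with the files as attached PRE2 was higher in cdc55 cells at 3 of 4 times.

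RPN3, a lid scaffold gene, was at -0.12, 0.51, 1.12 and 1.11 in control cells and at 0.27, 0.71, 1.00 and 0.24 in cdc55 cells. At 30 min it was lower in cdc55 cells by 0.87 on the log2 scale, PRE6 by 0.94 and PRE2 by 1.35. The next lowest difference at that time was -0.50 (PUP1). These 3 genes were picked after their values were seen.

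The strains' NaCl responses were also tested against each other. The difference, cdc55 minus control, had a median of -0.11 over the 32 subunits, with 7 of 32 above 0, against 52.9% of all probes. limma called 0 of 33 members and 0% of all probes, with 0 of 33 members and 1.33% of all probes under an unadjusted p of 0.05. The SE of this difference had a median of 0.32, larger than the median difference itself. That median was 0.024 without the 30 min arrays. RPN4 gave -0.39 ± 0.38 (limma adjusted p = 1).

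For RPN4 the strains lay furthest apart at the start and the end of the time course. The cdc55 strain was higher by 0.68 at 0 min, 0.11 at 10 min and 0.81 at 30 min, and differed by -0.04 at 20 min. The difference at 0 min missed the threshold (0.68 ± 0.33, limma adjusted p = 0.797), as did the mean over the NaCl arrays (0.29 ± 0.19, limma adjusted p = 0.39). At 30 min, when RPN4 was higher in cdc55 cells, the median strain difference of the subunits was -0.01.

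Genes that act around the proteasome were read from 46 genes in 5 lists. Over these 46 genes the NaCl response had a median of 0.36 in control cells, with 37 above 0, against 50.2% of all probes. limma called 5 of 46 higher and 0 lower, where 7.66% of all probes were called higher. In cdc55 cells the median was 0.39 with 40 above 0, against 51.2% of all probes. There limma called 0 of 46, where 2.88% of all probes were called higher, and 11 of 46 were under an unadjusted p of 0.05, where 26.3% of all probes were. Between strains with NaCl, limma called 0 of 46, where 2.21% of all probes were called, and 11 of 46 were under an unadjusted p of 0.05, near the 24.6% of all probes.

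Proteins that associate with the finished proteasome and the activators of RPN4 were nearest to the subunits. The median response of the 5 associated proteins was 0.70 in control cells and 0.54 in cdc55 cells. UBP6, a deubiquitinase bound to the base, was at -0.02, 0.65, 0.98 and 1.18 in control cells and at 0.25, 0.96, 1.19 and 1.07 in cdc55 cells. It rose by 0.95 ± 0.19 in control cells (limma adjusted p = 0.0339). SEM1, a small lid component outside the 32 listed subunits, was at -0.18, -0.38, 0.22 and 0.50 in control cells and at 0.14, 0.30, 0.81 and 0.53 in cdc55 cells. It passed no test.

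All 4 activators of RPN4 had positive responses, with a median of 0.68 in control cells and 0.53 in cdc55 cells. YAP1, the gene for the oxidative stress factor, was at -0.21, 0.49, 0.96 and 0.82 in control cells and at 0.56, 1.21, 1.32 and 0.93 in cdc55 cells. It rose by 0.97 ± 0.22 in control cells (limma adjusted p = 0.0417), and its response in cdc55 cells was 0.60 ± 0.22 (limma adjusted p = 0.157). PDR1, PDR3 and HSF1 passed no test. All 4 were highest at 20 min in both strains, whereas RPN4 was highest at 10 min. In cdc55 cells their 10 and 20 min levels were close, at 1.28 and 1.34 for PDR1 and 1.12 and 1.14 for HSF1. From 10 to 20 min over both strains, 0 of 4 were under an unadjusted p of 0.05 in limma, where 20.7% of all probes were. The later time of the activators was thus not resolved.

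The 9 assembly chaperones had a smaller median response than the subunits they help to build, 0.38 in control cells and 0.25 in cdc55 cells. NAS2, a chaperone of the base, was at 0.05, 0.86, 1.23 and 0.55 in control cells and at 0.25, 1.00, 1.13 and 0.93 in cdc55 cells. It rose by 0.83 ± 0.20 in control cells (limma adjusted p = 0.0487). IRC25, a chaperone of the alpha ring, was the lowest, at 0.11, -0.30, -0.18 and -0.11 in control cells. The 10 genes of Cdc48, the segregase that pulls substrates from complexes, and of the shuttle factors had medians of 0.47 and 0.39, and limma called 0 of 10 in either strain, with 4 and 1 under an unadjusted p of 0.05, where 34.5% and 26.3% of all probes were.

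The 18 genes of ubiquitin and its enzymes were split. In control cells 12 of 18 responses were above 0, against 50.2% of all probes, with a median of 0.23. In cdc55 cells 13 of 18 were above 0, against 51.2% of all probes, with a median of 0.20. DOA4, which recovers ubiquitin from substrates, was at 0.13, 1.48, 1.11 and 0.76 in control cells and at 0.41, 1.61, 1.19 and 0.40 in cdc55 cells. It rose by 0.98 ± 0.21 in control cells (limma adjusted p = 0.0364), and over both strains it fell by 0.96 on the log2 scale from 10 to 30 min (limma adjusted p = 0.0365). It was highest at 10 min in both strains, as RPN4 was. HRD1, a ubiquitin ligase of the endoplasmic reticulum, rose by 0.78 ± 0.17 in control cells (limma adjusted p = 0.0382), from -0.04 to 0.71, 0.98 and 0.52.

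UBI4 and UBR2 are named here after their values were seen. UBI4, the stress-induced polyubiquitin gene, had the largest response of the 46 genes in control cells without passing the test (1.49 ± 0.43, limma adjusted p = 0.0695). It was at -0.01, 0.82, 1.64 and 2.00 in control cells and at 1.12, 1.83, 2.27 and 1.39 in cdc55 cells. UBR2, the gene for a ubiquitin ligase that marks Rpn4 for degradation, had the largest strain difference with NaCl among the 46 genes, 0.90 ± 0.17 (limma adjusted p = 0.0586). Its level was -0.36, -0.998, -0.43 and -0.26 in control cells and 0.35, 0.11, 0.69 and 0.20 in cdc55 cells. UBR2 was higher in cdc55 cells at all 4 times, as were 19.8% of all probes.

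**Figure D5:**
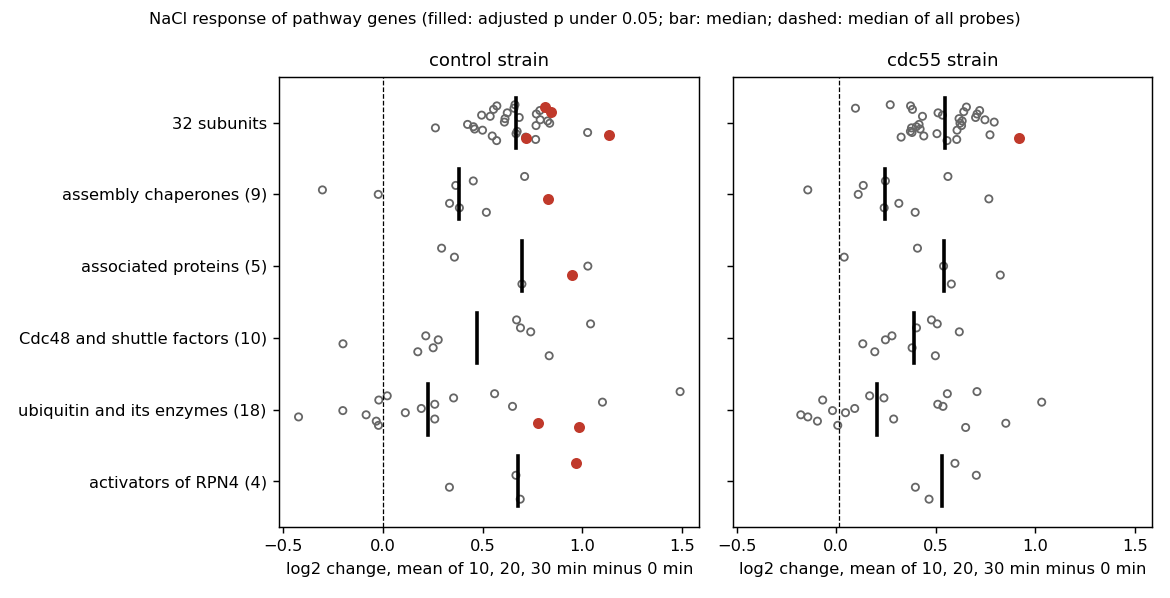
NaCl response (log2, mean of 10, 20 and 30 min minus 0 min, horizontal axis) of the 32 subunits and of 5 lists of genes that act with the proteasome, control strain at left and cdc55 strain at right. Each point is a gene, filled where the adjusted p was under 0.05, the bar is the list's median and the dashed line the median of all probes, and the subunits, with medians of 0.67 and 0.54, lie wholly above 0.

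Among all other genes, the 8 whose levels over the 8 arrays were most like the mean of the 32 subunits had a Pearson r between 0.977 (UBP15) and 0.997 (YPI1). The r describes 8 arrays that share a reference and a time course. YPI1, the gene for a regulator of protein phosphatase 1, was at -0.01, 0.36, 1.36 and 1.47 in control cells and at 0.59, 1.00, 1.72 and 1.28 in cdc55 cells. The others were UBP11 and UBP15, which encode deubiquitinases, TPD3, the scaffold subunit of protein phosphatase 2A, PEX30, CSC1, CDC19, the gene for pyruvate kinase, and VPS5. TPD3 was at -0.03, 0.11, 0.43 and 0.47 in control cells and at 0.20, 0.39, 0.68 and 0.54 in cdc55 cells, with the same order of times as the subunit median in each strain. Of the 46 pathway genes PDR3 came first, at rank 25 with r = 0.96.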

How the data were processed

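Per the file headers, the deposited scanner output gives each spot's intensity and local background for both dyes, with a log10 ratio from Agilent's software. Feature Extraction 10.5.1.1 and the design build sacCer1 are named in the headers of 5 of 8 files. The deposited value table holds log2 ratios with scale and direction unstated by the authors. Of its 5742 complete rows, 98.3% equalled the log2 Cy5/Cy3 of 1 probe within 0.01 in 8 columns, with column medians between -0.01 and 0.05. The 98.3% was counted after the swap. The 4 exchanged files were found beforehand, by matching rows to probes through 3 files and comparing each file with every column.

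Intensities were corrected with normexp (offset 50) and normalised by loess within each array. Non-uniform spots were left out, the 2 spots of a probe averaged, and the brightest probe taken for a gene with several. Of 6256 probes, 12 had no usable spot on an array and 136 cleared background in Cy5 on fewer than 3 arrays, which left 6108. limma 3.58.1 (R 4.3.3) fitted 4 time terms and separate strain terms at 0 min and with NaCl, with 2 residual and 3.93 prior degrees of freedom. The fit was tested on simulated data. Tables and plots were made with Python 3.11.15, pandas 2.3.3 and matplotlib 3.10.9.

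The members, lists and tests were chosen with earlier results of these data known. Genes given array by array are RPN4, the largest and smallest mean response of each sub-assembly, and every member or listed gene past the test, and likeness takes the 8 highest correlations. PRE2, RPN2, RPN3, RPN8, SEM1, IRC25, UBI4 and UBR2 were named after their values were seen. Of 6228 systematic names, 5740 were in the RefSeq table of assembly R64, whose coordinates are not printed because the build differs. Promoter motifs were not analysed here.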

Additional observations from a re-analysis of the deposited data

How the results depend on the processing

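The direction of the NaCl response held under all 10 alternatives: the median of the 32 subunits stayed between 0.49 and 0.88 in the control strain, the last without the 10 min arrays, and between 0.42 and 0.68 in the cdc55 strain. The counts of calls did not hold. Fits without 1 of the times had 1 residual degree of freedom in place of 2, and the fit with a constant strain term had 3. In the control strain 4 members were called, against 2 with Agilent's log ratio, 0 with median centring, 0 with the files as attached, 29 without the 10 min arrays, 0 without the 20 min arrays and 28 with a strain term constant over time. In the cdc55 strain 1 member was called, against 0 with Agilent's log ratio, median centring, the value table, the files as attached or without the 20 min arrays, 11 without the 10 min arrays, 3 without the 30 min arrays and 28 with a constant strain term. A constant strain term fits 1 NaCl response for both strains, so its 28 calls in each strain are the same calls. Members called between strains with NaCl were 2 with median centring, 1 without the 10 min arrays and 4 with a constant strain term. That term fits 1 strain difference for all times, so its calls at 0 min are the same 4. From 10 to 20 min 1 member was called with median centring and 1 without the 30 min arrays (RPN4 in both), and 2 with a constant strain term. From 10 to 30 min 1 was called with Agilent's log ratio and the value table (RPN4) and with median centring (RPN2), and 7 with a constant strain term. With the files as attached the median over the subunits was 0.066 between strains with NaCl and 0.14 from 20 to 30 min. Over all probes, median centring gave 546 calls for the cdc55 response, 403 and 20 between strains with NaCl and at 0 min, and 264, 308 and 750 for 20 against 10, 30 against 20 and 30 against 10 min. The files as attached gave 0 for both responses, both strain differences, 20 against 10 and 30 against 10 min. A constant strain term gave 2464 for the 1 response shared by both strains and 834 for the 1 strain difference shared by all times. It gave 141 and 1040 for 20 and 30 against 10 min. Without the 10 min arrays there were 1750 and 961 for the responses of the control and cdc55 strains, 1012 and 72 between strains with NaCl and at 0 min, 2 for the difference in response and 677 for 30 against 20 min. Without the 20 min arrays there were 33 and 13 for the responses, 0 for both strain differences and 7 for 30 against 10 min. Without the 30 min arrays there were 924 for the cdc55 response, 29 between strains with NaCl and 118 for 20 against 10 min. An intensity trend in the variance gave 209 and 5 between strains with NaCl and at 0 min, and 25 for 20 against 10 min. Agilent's log ratio gave 5 between strains at 0 min, and with it, the value table or no filter on dim probes 0 were called for 20 against 10 min. The cause of these shifts was not tested. Each strain and time has 1 array, so that the number of arrays limits the precision and culture-to-culture spread is not measured. No paired analysis was possible because each strain and time has 1 sample, and the shared replicate number marks no pairing.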
